A study of Mus musculus with 19 samples.

Results

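Egln3 encodes a prolyl hydroxylase of the oxygen-sensing pathway, and it was examined here with 7 other genes of that pathway in the mouse prefrontal cortex. The 8 genes were Egln1, Egln2, Egln3, Hif1a, Epas1, Vhl, Vegfa and Hif1an, taken from 16593 gene symbols on the array. Every probe that the platform annotation assigns to 1 of these 8 symbols was used, which gave 15 of 25697 probes. Of these, 10 passed the filter on dim probes, which kept 14942 probes in all. Egln3 itself was selected on its measured values in these samples, for shifts with loss of 1 Polb allele that ran in opposite directions without and with the 3xTgAD transgenes. Its values are therefore given as a description, with no test, and tests are given for the other genes. The other members and the pathway lists below were chosen with earlier results of these data known, which limits their counts and p-values.

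The samples came from female mice killed at 20 months of age, all with the strain label C57BL/6, and each RNA sample was hybridised to its own Illumina bead array. There were 5 wild type arrays, 4 arrays of Polb+/- mice, 6 of 3xTgAD mice and 4 of 3xTgAD/Polb+/- mice. Polb encodes DNA polymerase beta, the main polymerase of base excision repair, and the heterozygous mice carry 1 deficient allele. The 3xTgAD line is a model of Alzheimer's disease that carries APPswe, PS1M146V and tauP301L, and 3xTgAD/Polb+/- mice came from a cross of the 2 lines. The labels name no promoter for the transgenes and do not say whether wild type mice were littermates of the others. Arrays are used as replicates, although the arrays of 3xTgAD replicates 2 and 5 carry the same code in the file headers, so n = 6 there counts arrays and not surely mice.

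When oxygen is present, the Egln prolyl hydroxylases modify the alpha subunits of hypoxia-inducible factor (HIF), which are then bound by the Vhl ubiquitin ligase and degraded. When oxygen is short, Hif1a and Epas1 persist, pair with Arnt and switch on genes for glucose uptake, glycolysis and vessel growth, Vegfa among them. Egln3 and Egln1 are themselves HIF targets, so their transcripts are commonly read as markers of the response. Hif1an is an asparaginyl hydroxylase that limits the activity of the alpha subunits. Neurons use the same pathway, and Egln3 is also known for a part in neuronal cell death after withdrawal of nerve growth factor.

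HIF binds DNA at a short core, written here as ACGTG or GCGTG and searched on both strands. The 250 bases before the annotated start of Egln3 and of Egln1 are shown, and the search found the core in each. Egln3 is the selected gene, and Egln1 had the smallest adjusted p-value in limma of the tested members, though none passed. The sequences are from RefSeq (build GRCm38.p6) and are written in the sense of the gene, with each match in capitals. Egln3 lies on the minus strand at chr12:54203875-54204124 and Egln1 on the minus strand at chr8:124949255-124949504.
Egln3: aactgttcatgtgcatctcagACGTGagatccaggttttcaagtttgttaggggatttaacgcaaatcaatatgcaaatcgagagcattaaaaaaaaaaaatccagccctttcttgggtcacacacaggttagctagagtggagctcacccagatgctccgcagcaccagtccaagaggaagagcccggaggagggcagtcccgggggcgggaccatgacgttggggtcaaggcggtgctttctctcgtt
Egln1: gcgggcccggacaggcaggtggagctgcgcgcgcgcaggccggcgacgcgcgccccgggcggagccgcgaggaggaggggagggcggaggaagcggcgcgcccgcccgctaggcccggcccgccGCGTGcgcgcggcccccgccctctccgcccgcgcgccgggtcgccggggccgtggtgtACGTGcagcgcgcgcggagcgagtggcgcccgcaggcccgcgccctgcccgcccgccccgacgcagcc
The Egln3 window held 1 match, an ACGTG that begins 229 bases before the start. In the Egln1 window a GCGTG began 126 bases and an ACGTG 68 bases before the start. Windows were listed for 7 of the 8 symbols, 9 windows in all, and 6 of them held a match. Over all 32851 promoter windows of this length, 38.6% held either core and 16.6% held ACGTG. A match describes the letters only, and no measurement of HIF binding is available here.

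Egln3 was measured by probe ILMN_2605819, which was above background (detection p-value under 0.05) on all 19 arrays. Levels are normalised log2 intensities throughout. On the 5 wild type arrays Egln3 stood at 7.34, 7.36, 7.56, 6.99 and 7.13, a mean of 7.28 ± 0.22 (SD, n = 5). The Polb+/- arrays gave 6.72, 7.20, 6.72 and 6.77, a mean of 6.85 ± 0.23 (SD, n = 4). Thus 3 of the 4 Polb+/- arrays lay below every wild type array, and the array at 7.20 lay among them.

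The 6 3xTgAD arrays ran from 7.02 to 7.35 with a median of 7.17, and their mean was 7.18 ± 0.16 (SD, n = 6). The 3xTgAD/Polb+/- arrays gave 7.35, 7.68, 7.58 and 7.90, a mean of 7.63 ± 0.23 (SD, n = 4). All 4 lay above the 3xTgAD arrays, although the margin was narrow, with the lowest at 7.355 against a highest 3xTgAD array at 7.348. They also lay above all 4 Polb+/- arrays. By mean level the order was 3xTgAD/Polb+/-, wild type, 3xTgAD and Polb+/-, and each genotype overlapped its neighbour in that order. Wild type and 3xTgAD differed by less than the SD of either group.

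**Figure D1:**
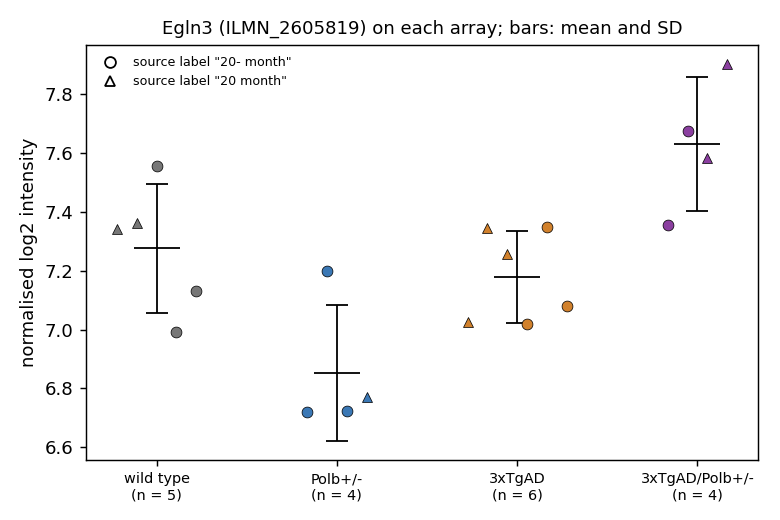
Normalised log2 intensity of Egln3 (probe ILMN_2605819) on each of the 19 arrays, by genotype. Circles are arrays whose age is spelled "20- month", triangles those with "20 month", and bars give the mean and the SD. Polb+/- arrays average 6.85 against 7.28 in wild type, and 3xTgAD/Polb+/- arrays average 7.63 against 7.18 in 3xTgAD.

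In log2 terms the Egln3 mean of Polb+/- was 0.42 below that of wild type (log2 difference -0.42, SE 0.140), a level 1.34-fold lower. It was 0.45 higher (SE 0.135) in 3xTgAD/Polb+/- than in 3xTgAD, which is 1.37-fold. The interaction, meaning the second difference minus the first, was 0.87 on the log2 scale (SE 0.195). For the transgenes, the log2 difference was -0.10 (SE 0.127) between 3xTgAD and wild type. It was 0.78 (SE 0.148) between 3xTgAD/Polb+/- and Polb+/-. The double genotype exceeded wild type by 0.35 (SE 0.140). These differences share groups and are not separate pieces of evidence.

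Leaving out any single array kept the interaction between 0.78 and 0.99. Egln3 was chosen on these same arrays, so this range and the values below describe its pattern and are no support for it. The source labels spell the age as "20- month" on 11 arrays and "20 month" on 8, and each genotype has both, with 3 of the 4 Polb+/- arrays in the first. What the spellings stand for is not given in the labels, but the number of probes above background separated them completely, at 13876 to 14396 on the first 11 arrays and 13205 to 13562 on the other 8. With the spelling as a block the Egln3 interaction was 0.86. Within the first spelling the interaction was 0.71, and within the second it was 1.12, where Polb+/- had only 1 array. The second Egln3 probe, ILMN_2782101, was not above background on any of the 19 arrays, with log2 intensities of 4.45 to 4.64. Egln3 thus rests on 1 probe.

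Polb, checked as the targeted gene (probe ILMN_2789425), ran from 7.55 to 7.97 in wild type and from 6.95 to 7.26 in Polb+/-. In 3xTgAD/Polb+/- it ran from 6.53 to 7.21, also below every wild type array. Of the 6 arrays labelled 3xTgAD, 4 ran from 7.53 to 7.79, but replicates 4 and 6 stood at 6.89 and 6.63, within the range of arrays from mice with 1 allele. These 2 libraries also stood apart in the striatal neuron markers described next, with mean log2 intensities of 10.89 and 10.54 against 8.92 to 9.001 on the other 4 arrays labelled 3xTgAD. Without the libraries labelled 3xTgAD replicates 4 and 6, Egln3 differed by 0.39 between 3xTgAD/Polb+/- and 3xTgAD, and the interaction was 0.81. The limma log2 difference for Polb was -0.63 (SE 0.202, adjusted p = 0.999995) in Polb+/- and -0.74 (SE 0.202, adjusted p = 0.181) in 3xTgAD/Polb+/-, each against wild type.

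Markers of striatal neurons, a cell type of the neighbouring striatum, differed between arrays and were high on the Polb+/- arrays, where Egln3 was low. Of 11 listed markers 8 could be measured, and their mean log2 intensity ran from 10.56 to 11.19 in Polb+/- but from 8.64 to 9.53 in 3xTgAD/Polb+/-. Wild type arrays spread from 8.61 to 10.82 and 3xTgAD arrays from 8.92 to 10.89. The summed level of the 8 markers, as log2, was 14.38 to 14.92 in Polb+/-, 13.10 to 14.52 in wild type, 13.13 to 14.68 in 3xTgAD and 13.02 to 13.45 in 3xTgAD/Polb+/-. Adora2a and Penk were among those with no kept probe.

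The plot of Egln3 against these markers shows the 4 Polb+/- arrays at its lower right, with the 3xTgAD/Polb+/- arrays at its upper left. With the striatal mean as a covariate, a fit added after these values were seen, the Egln3 log2 difference was -0.28 between Polb+/- and wild type, 0.41 between 3xTgAD/Polb+/- and 3xTgAD, and 0.69 for the interaction. Choroid plexus markers, 3 of 10 measurable, had array means of 6.74 to 8.16 in Polb+/-, above the 4.83 to 6.58 of wild type, with 5.70 to 6.91 in 3xTgAD and 5.11 to 6.11 in 3xTgAD/Polb+/-. The summed level of the choroid plexus markers, as log2, was 8.73 to 11.28 in Polb+/-, 6.42 to 8.89 in wild type, 7.58 to 8.98 in 3xTgAD and 6.79 to 7.97 in 3xTgAD/Polb+/-. The choroid plexus genes Folr1, Kcne2, Prlr, Otx2, Sostdc1, Slc4a5 and Enpp2 had no kept probe. Markers of endothelial cells and pericytes, astrocytes, neurons, oligodendrocytes, microglia and blood had array means that overlapped between every pair of genotypes. Cortical neuron markers, 8 of 10 measurable, had array means of 9.31 to 9.43 in wild type and 9.29 to 9.42 in Polb+/-. The ranges were 9.27 to 9.49 in 3xTgAD and 9.16 to 9.43 in 3xTgAD/Polb+/-. Replicates 1, 2 and 3 of 3xTgAD/Polb+/-, at 9.16, 9.23 and 9.19, lay below every array of the other genotypes. The part of choroid plexus tissue or of cortical neurons in the Egln3 differences was not tested. In bulk tissue, fewer cells of a type and less RNA per cell cannot be told apart.

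**Figure D2:**
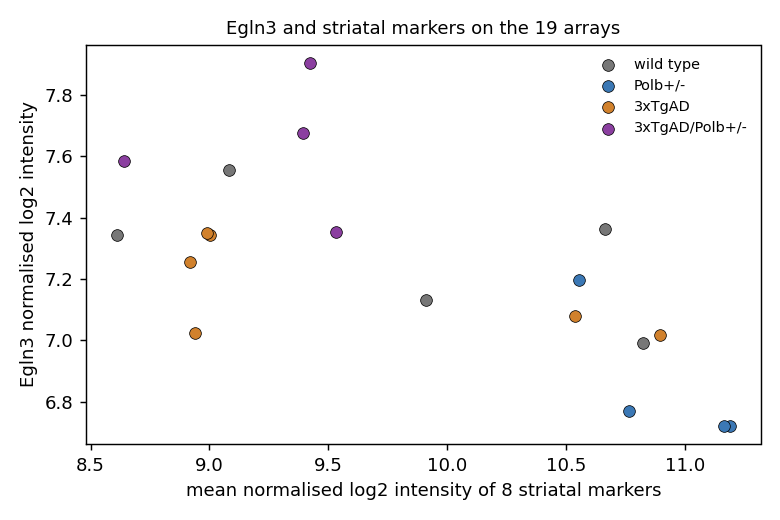
Egln3 normalised log2 intensity (vertical) against the mean normalised log2 intensity of 8 striatal neuron markers (horizontal), 1 point per array. All 4 Polb+/- arrays lie at 10.56 or above on the horizontal axis, and all 4 3xTgAD/Polb+/- arrays at 9.53 or below.

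Among the other members, 9 probes of 6 genes entered the tests. The limma test with Benjamini-Hochberg adjustment over all 14942 kept probes called none of the 9 in any of the 6 comparisons. Calls were scarce over the whole array too. They made up 0% of probes between Polb+/- and wild type, between 3xTgAD/Polb+/- and 3xTgAD, for the interaction, and between 3xTgAD and wild type. The share was 0.0134% between 3xTgAD/Polb+/- and Polb+/- and 0.00669% between 3xTgAD/Polb+/- and wild type.

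At an unadjusted p under 0.05 the counts of member probes were 0 of 9 for Polb+/- against wild type, where 3.21% of all probes passed, and 2 of 9 for 3xTgAD/Polb+/- against 3xTgAD, where 8.87% passed. They were 0 of 9 for the interaction, against 3.13%, and 2 of 9 for 3xTgAD against wild type, against 5.81%. They were 3 of 9 for 3xTgAD/Polb+/- against Polb+/-, against 11.6%, and 4 of 9 for 3xTgAD/Polb+/- against wild type, against 12.7%. The 9 probes are not independent, since 3 measure Egln1 and 2 measure Vegfa.

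In the comparison of 3xTgAD/Polb+/- with wild type, 8 of the 9 probes had a higher mean in the double genotype. Their median log2 difference was 0.30, beside 0.025 for all kept probes, of which 54.5% were higher. Against Polb+/-, 8 of 9 were again higher, with a median of 0.25 beside 0.032. Against 3xTgAD the median was 0.18, and 8 of 9 were higher, beside a median of 0.0073. For Polb+/- against wild type, 6 of 9 were higher and the median was 0.04, beside -0.0026 for all kept probes.

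**Figure D3:**
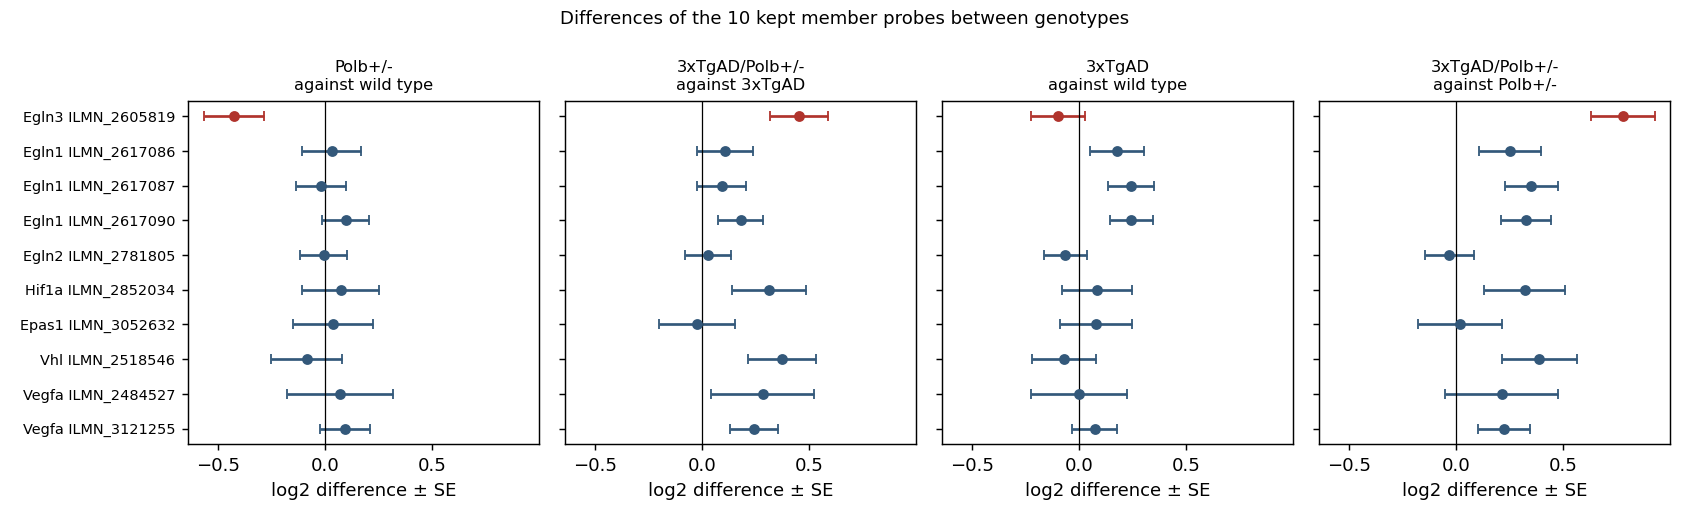
Log2 differences with SE from limma for the 10 kept member probes in 4 comparisons of genotypes. Egln3 (red) lies at -0.42, 0.45, -0.10 and 0.78, while the 9 other probes (blue) lie within 0.10 of zero for Polb+/- against wild type.

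Egln1 encodes the prolyl hydroxylase that does most of the HIF hydroxylation in normal oxygen. Its 3 probes were above background on all arrays and followed each other across the 19 arrays with Pearson r of 0.77 to 0.88, a description of probes that share arrays and a transcript. For ILMN_2617090 the wild type arrays stood at 8.03, 7.93, 8.17, 8.21 and 8.28, and the 3xTgAD/Polb+/- arrays at 8.70, 8.51, 8.34 and 8.64. The double genotype lay above wild type on every array, which was so for 1 of the 9 member probes and for 1.58% of all probes.

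Polb+/- arrays gave 8.28, 8.14, 8.39 and 8.07 for this Egln1 probe, and 3xTgAD arrays ran from 8.22 to 8.56 with a median of 8.35. The log2 difference of 3xTgAD/Polb+/- from wild type was 0.42 (SE 0.111, adjusted p = 0.157 in limma), the smallest adjusted p of any member probe. It did not pass the threshold. Without 3xTgAD/Polb+/- replicate 3 it was 0.49 with an adjusted p of 0.0410 in limma, so that call turned on 1 array. In the same fit 2.13% of all probes were called. With the striatal marker mean as a covariate it was 0.45 (adjusted p = 0.141 in limma). Within spellings it was 0.38 for "20- month" and 0.51 for "20 month", with limma adjusted p of 0.0611 and 0.596.

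The second Egln1 probe, ILMN_2617087, gave 8.07, 7.86, 8.06, 8.14 and 8.21 in wild type and 8.08, 8.08, 8.15 and 7.90 in Polb+/-. It gave 8.52, 8.42, 8.19 and 8.48 in 3xTgAD/Polb+/-, all above Polb+/-, while 3xTgAD arrays ran from 8.03 to 8.64 with a median of 8.33. Such complete separation from Polb+/- was found for 1 of the 9 probes and for 2.36% of all probes. The log2 difference from Polb+/- was 0.35 (SE 0.125, adjusted p = 0.273 in limma).

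Between 3xTgAD and wild type, probes ILMN_2617090 and ILMN_2617087 differed by 0.24 each on the log2 scale, with limma adjusted p of 0.794 and 0.841. The groups overlapped, as for all 9 member probes in that comparison, and 0.415% of all probes had 3xTgAD wholly above wild type. The third probe, ILMN_2617086, had means of 7.40 in wild type, 7.44 in Polb+/-, 7.58 in 3xTgAD and 7.69 in 3xTgAD/Polb+/-. Its double genotype exceeded wild type by 0.28 (SE 0.137, adjusted p = 0.396 in limma) and its arrays overlapped, since replicate 3 stood at 7.30. Without replicate 4 of the double genotype that difference was 0.17.

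In Polb+/- the Egln1 mean was not below wild type on the probes ILMN_2617090 and ILMN_2617086, where the log2 difference from wild type was 0.10 (95% CI -0.13 to 0.33) and 0.03 (-0.25 to 0.32). On ILMN_2617087 it was -0.02 (-0.27 to 0.23). The interaction was 0.08 to 0.11 on the log2 scale over the 3 probes, with an adjusted p of 0.9999 for each in limma. No test of Egln3 against Egln1 was made, because Egln3 was chosen for its interaction.

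**Figure D4:**
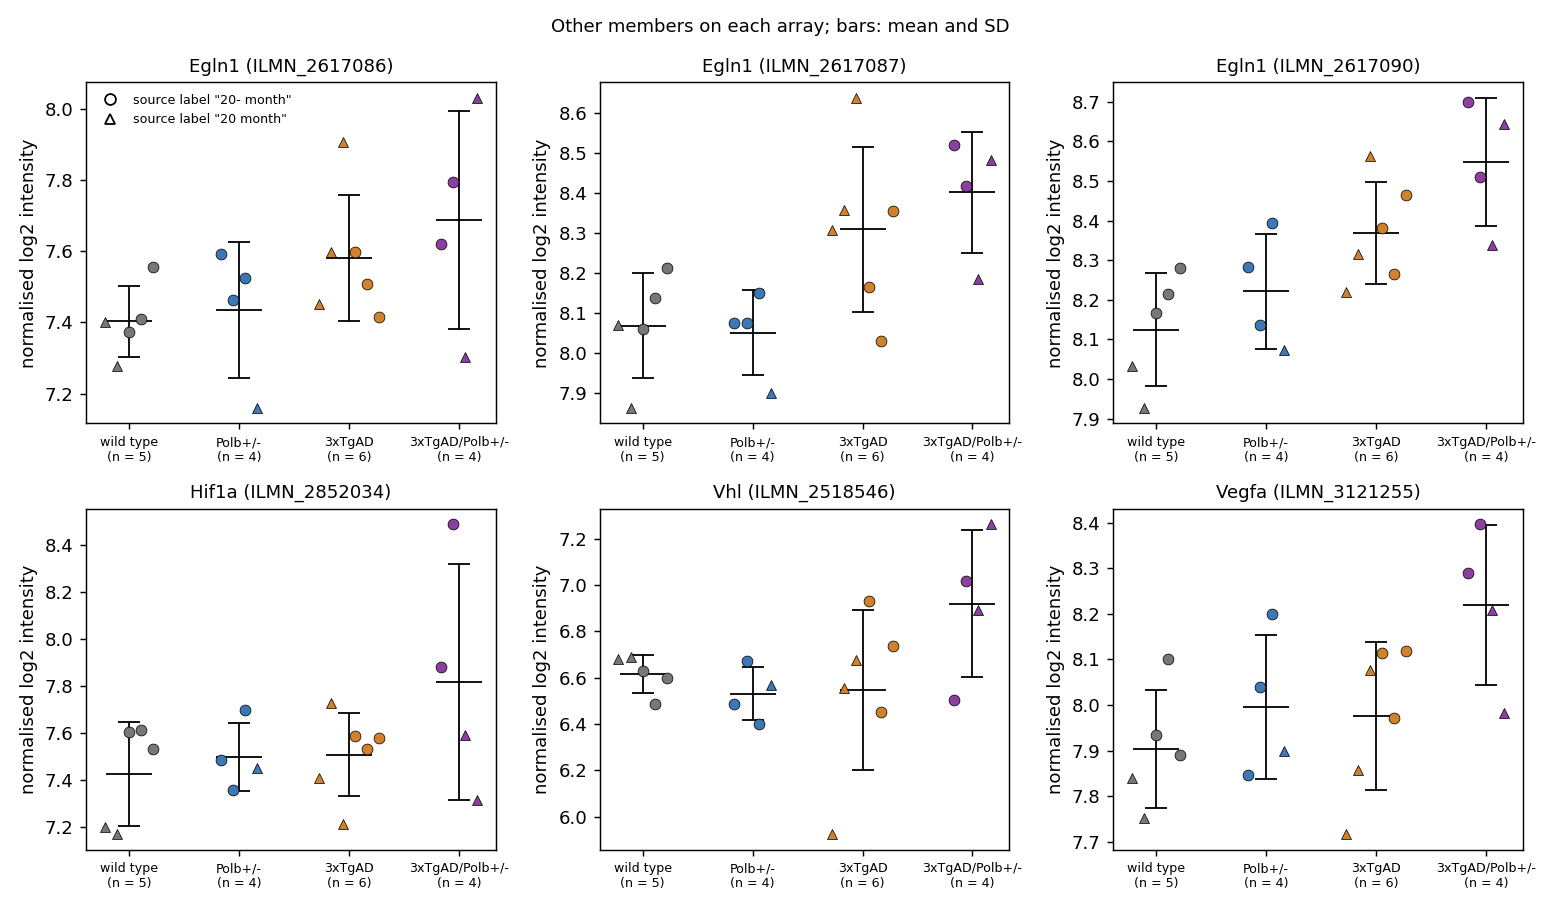
Normalised log2 intensity on each array for the 3 Egln1 probes and for Hif1a, Vhl and Vegfa (ILMN_3121255), by genotype, with the mean and SD as bars. Circles are "20- month" arrays and triangles "20 month" arrays. For Egln1 ILMN_2617090 all 4 3xTgAD/Polb+/- arrays lie above the 5 wild type arrays, and for Hif1a 1 3xTgAD/Polb+/- array stands at 8.49.

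Egln2, the third prolyl hydroxylase of this family, differed little between genotypes. Its probe ILMN_2781805 averaged 7.68 ± 0.09 in wild type, 7.68 ± 0.10 in Polb+/-, 7.62 ± 0.10 in 3xTgAD and 7.65 ± 0.25 in 3xTgAD/Polb+/- (SD, n = 5, 4, 6 and 4). The groups overlapped throughout, and log2 differences in the 6 comparisons ran from -0.06 to 0.03. For 3xTgAD/Polb+/- against wild type the difference was -0.04, with a 95% CI of -0.27 to 0.19.

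Hif1an, the asparaginyl hydroxylase, was not above background on any array for its only probe, ILMN_2600104, with log2 intensities of 4.39 to 4.57. No difference is given for it. The probes ILMN_2671698 and ILMN_3129160 of Epas1 and ILMN_3045723 of Vegfa were likewise above background on 0 of 19 arrays. With the second Egln3 probe these are the 5 member probes that the filter removed.

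Hif1a encodes the oxygen-regulated alpha subunit found in most cells. Its probe ILMN_2852034 gave 7.20, 7.17, 7.61, 7.61 and 7.53 in wild type and 7.49, 7.36, 7.70 and 7.45 in Polb+/-. The 3xTgAD arrays ran from 7.22 to 7.73 with a median of 7.56, and the 3xTgAD/Polb+/- arrays gave 7.88, 8.49, 7.59 and 7.32. The double genotype was thus spread over a wider range than the others, with 1 array far up and those at 7.59 and 7.32 within the wild type range.

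The Hif1a log2 difference of 3xTgAD/Polb+/- from wild type was 0.39 (SE 0.179, adjusted p = 0.369 in limma). Without replicate 2 of the double genotype, the array at 8.49, it was 0.17. On the "20- month" arrays alone, with 2 arrays of the double genotype, it was 0.60 (adjusted p = 0.0329 in limma), and against Polb+/- it was 0.67 (adjusted p = 0.0249 in limma). On those arrays 13.3% and 10.6% of all probes were called in the same comparisons. On the "20 month" arrays, where the double genotype also had 2 arrays, those differences were 0.27 (adjusted p = 0.851 in limma) and 0.0029 (adjusted p = 0.999 in limma). Hif1a was thus called on the first set of arrays and not on the second, and whether the sets differ was not tested.

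Epas1, the alpha subunit prominent in endothelial cells, was measured by ILMN_3052632. Means were 7.13 ± 0.25 in wild type, 7.17 ± 0.35 in Polb+/-, 7.21 ± 0.22 in 3xTgAD and 7.18 ± 0.37 in 3xTgAD/Polb+/- (SD, n = 5, 4, 6 and 4). All groups overlapped, and the difference of 3xTgAD/Polb+/- from wild type was 0.06 on the log2 scale, with a 95% CI of -0.33 to 0.44.

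Vhl, the substrate receptor that recognises hydroxylated HIF, followed Egln3 most closely among the members by Pearson r over the 19 arrays. Its probe ILMN_2518546 gave 6.68, 6.69, 6.63, 6.49 and 6.60 in wild type and 6.49, 6.67, 6.40 and 6.57 in Polb+/-. The 3xTgAD arrays ran from 5.92 to 6.93 with a median of 6.62, and the 3xTgAD/Polb+/- arrays gave 6.50, 7.02, 6.89 and 7.26. In the double genotype, replicates 2 and 4 lay above all other arrays, and replicate 1 lay among those of wild type. Vhl had the lowest mean of the kept member probes in every genotype. It was above background on all arrays, with a detection p-value of 0.015 on 3xTgAD replicate 1, the array at 5.92.

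The Vhl log2 difference of 3xTgAD/Polb+/- from 3xTgAD was 0.37 (SE 0.160, adjusted p = 0.546 in limma), and that from Polb+/- was 0.39 (SE 0.175, adjusted p = 0.400 in limma). That of Polb+/- from wild type was -0.09 (SE 0.166), and the interaction was 0.46 (SE 0.230, adjusted p = 0.9999 in limma). Without 3xTgAD replicate 1 the difference from 3xTgAD was 0.25, and within spellings it was 0.05 on "20- month" and 0.69 on "20 month" arrays. The interaction was 0.10 on "20- month" and 0.81 on "20 month" arrays. Across the 19 arrays Vhl followed Egln3 with Pearson r = 0.61, and with 0.44 once genotype means were removed. The other members had r from -0.04 to 0.40, and from -0.28 to 0.23 once genotype means were removed.

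Vegfa encodes the vessel growth factor that is the classic HIF target. Probe ILMN_3121255 gave 7.84, 7.75, 7.93, 8.10 and 7.89 in wild type and 8.29, 8.40, 8.21 and 7.98 in 3xTgAD/Polb+/-. Polb+/- arrays gave 7.85, 8.04, 8.20 and 7.90, and 3xTgAD arrays ran from 7.72 to 8.12 with a median of 8.02. In the double genotype, replicates 1, 2 and 3 lay above every array of the other genotypes, and replicate 4, at 7.98, lay within their range.

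The Vegfa log2 difference from wild type was 0.32 (SE 0.117, adjusted p = 0.284 in limma), and that from 3xTgAD was 0.24 (SE 0.112, adjusted p = 0.559 in limma). The second kept Vegfa probe, ILMN_2484527, had means of 9.76 ± 0.31 in wild type, 9.83 ± 0.48 in Polb+/-, 9.76 ± 0.37 in 3xTgAD and 10.04 ± 0.48 in 3xTgAD/Polb+/- (SD, n = 5, 4, 6 and 4). Its difference of the double genotype from wild type was 0.28 (SE 0.248, adjusted p = 0.670 in limma), and all groups overlapped. It was 0.0997 without replicate 2 of the double genotype, 0.48 without replicate 4 and 0.16 without wild type replicate 2. By spelling, this probe ran from 9.89 to 10.59 on the "20- month" arrays and from 9.14 to 9.94 on the "20 month" arrays. The kept Vegfa probes followed each other across the 19 arrays with Pearson r = 0.78.

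The wider pathway was followed through 4 lists of genes outside the members, 71 in all, of which 58 could be measured. No gene of these lists passed the limma test in any comparison. At an unadjusted p under 0.05, 2 of 58 passed for Polb+/- against wild type (3.21% of all probes), 9 for 3xTgAD/Polb+/- against 3xTgAD (8.87%) and 3 for the interaction (3.13%). There were 2 for 3xTgAD against wild type (5.81%), 7 for 3xTgAD/Polb+/- against Polb+/- (11.6%) and 11 for 3xTgAD/Polb+/- against wild type (12.7%).

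HIF targets in glucose uptake and glycolysis, 17 of 19 measured, had a higher mean in 3xTgAD/Polb+/- than in wild type for 16 of 17. Their median log2 difference was 0.12, beside 0.025 for all kept probes, of which 54.5% were higher. None passed the adjusted threshold, and 5 had an unadjusted p under 0.05, all of them higher. Pgam1, a phosphoglycerate mutase, averaged 10.64 ± 0.15 in wild type and 11.003 ± 0.20 in 3xTgAD/Polb+/- (SD, n = 5 and 4), a log2 difference of 0.36 (SE 0.106, adjusted p = 0.221 in limma). Without 3xTgAD/Polb+/- replicate 3 it was 0.46 (adjusted p = 0.0378 in limma). Pgk1, a phosphoglycerate kinase, averaged 6.85 ± 0.20 in 3xTgAD and 7.25 ± 0.30 in 3xTgAD/Polb+/- (SD, n = 6 and 4), a log2 difference of 0.40 (SE 0.152, adjusted p = 0.500 in limma). For Polb+/- against wild type the list had 15 of 17 higher but a median of only 0.05, and for 3xTgAD against wild type 11 of 17 were higher with a median of 0.04.

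The machinery list, with partners of HIF and parts of the ubiquitin ligase, had 14 of 16 genes measured and went in no common direction. In 3xTgAD/Polb+/- against wild type 8 were higher and 6 lower, with a median of 0.04. Siah1a, a ubiquitin ligase whose targets include Egln3, had a log2 difference of 0.36 (SE 0.115, adjusted p = 0.242 in limma). Elob, an elongin subunit of the Vhl complex, had -0.74 (SE 0.235, adjusted p = 0.243 in limma), with double arrays spread from 11.67 to 13.21 on the log2 scale against 13.10 to 13.29 in wild type. Without 3xTgAD/Polb+/- replicate 3 the Elob difference was -0.99 (adjusted p = 0.0355 in limma).

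HIF targets with other functions, 20 of 27 measured, had 14 higher and 6 lower in 3xTgAD/Polb+/- against wild type, with a median of 0.08. Tfrc, the transferrin receptor, had a log2 difference of 0.49 (SE 0.162, adjusted p = 0.252 in limma). Bhlhe40, a transcriptional repressor induced by hypoxia, differed by -0.37 (SE 0.147, adjusted p = 0.999995 in limma) between Polb+/- and wild type. Its interaction was 0.52 (SE 0.204, adjusted p = 0.9999 in limma). Every Polb+/- array of Bhlhe40 lay below every wild type array, at 10.55 to 11.01 against 11.03 to 11.20, as was so for 0.823% of all probes.

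Of the VEGF family and its receptors, 7 of 9 were measured, and 6 of 7 had a lower mean in the double genotype than in wild type, with a median of -0.05. As many were lower than wild type in Polb+/-, with a median of -0.15, and in 3xTgAD, with a median of -0.06. Vegfb had a log2 difference of -0.43 (SE 0.163, adjusted p = 0.290 in limma). Vegfc, a growth factor of lymphatic vessels, averaged 6.97 ± 0.21 in wild type and 6.58 ± 0.20 in Polb+/- (SD, n = 5 and 4). It averaged 6.79 ± 0.08 in 3xTgAD and 6.93 ± 0.12 in 3xTgAD/Polb+/- (SD, n = 6 and 4). Its log2 difference between Polb+/- and wild type was -0.39 (SE 0.117, adjusted p = 0.999995 in limma) and its interaction was 0.53 (SE 0.162, adjusted p = 0.9999 in limma). Neither passed.

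**Figure D5:**
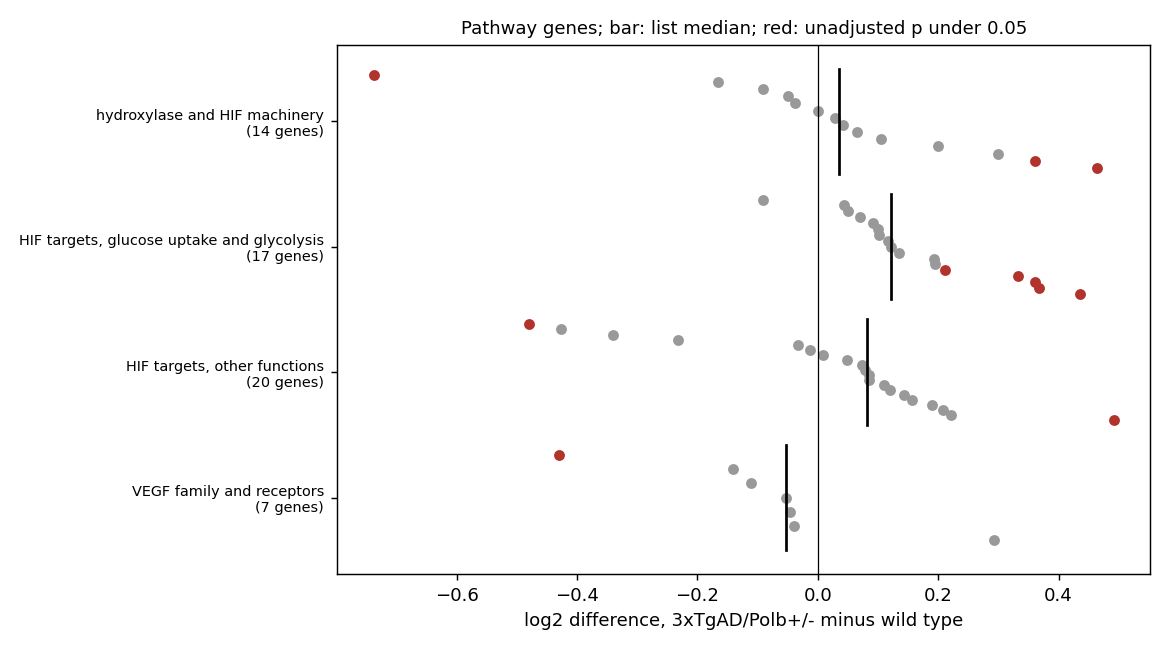
Log2 difference of 3xTgAD/Polb+/- minus wild type for the 58 measured pathway genes in 4 lists, 1 point per gene, with each list's median as a vertical bar and an unadjusted p under 0.05 in red. In the glycolysis list 16 of 17 genes lie right of zero with a median of 0.12, and no gene passed the adjusted threshold.

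Among 10216 other symbols with a kept probe, the 5 whose levels followed Egln3 most closely over the 19 arrays were Fads3 (Pearson r = 0.80, chromosome 19), Map2k5 (0.79, chromosome 9), Vegfc (0.77, chromosome 8), Ss18l1 (0.76, chromosome 2) and Adgra1 (0.76, chromosome 7). These were picked as the highest of all symbols, so the r values are a description. With genotype means removed, r was 0.61, 0.51, 0.69, 0.49 and 0.57 in the same order. The genes share arrays and their normalisation with Egln3, and none lies on chromosome 12, where Egln3 is.

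Genes beside Egln3 on chromosome 12 were read in the same way. The 5 nearest symbols with a kept probe on one side were Strn3, Ap4s1, Heatr5a, Akap6 and Npas3, and on the other Sptssa, Snx6, Cfl2, 2700097O09Rik and Srp54a. None passed the limma test in any comparison, and their Pearson r with Egln3 over the 19 arrays ran from -0.32 to 0.43. The log2 interaction ran from -0.71 for Heatr5a (SE 0.407) to 0.52 for Npas3 (SE 0.396), each with an adjusted p of 0.9999 in limma. The Npas3 difference was -0.48 (SE 0.285) between Polb+/- and wild type and 0.04 (SE 0.274) between 3xTgAD/Polb+/- and 3xTgAD. Between 3xTgAD/Polb+/- and Polb+/- it was 0.77 (SE 0.301, adjusted p = 0.330 in limma), beside 0.78 for Egln3. Npas3 was dim, with a Polb+/- mean of 5.50 and signal above background on 3 of those 4 arrays. Its 3xTgAD/Polb+/- arrays ran from 5.61 to 7.19 and overlapped those of Polb+/-.

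The ranges of probes above background overlapped between the 4 genotypes, with 13205 to 14379 in wild type, 13409 to 14396 in Polb+/-, 13232 to 14186 in 3xTgAD and 13255 to 13993 in 3xTgAD/Polb+/-. Complete separation upward was found for 0.743% of all probes in Polb+/- against wild type and for 0.555% in 3xTgAD/Polb+/- against 3xTgAD, and for 0 of the 9 tested member probes in each. Nothing can be read from these shares for Egln3, whose contrasts served to choose it.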

How the data were processed

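Prefrontal cortex RNA from mice of 4 genotypes was measured on 19 Illumina bead arrays. The deposited table of intensity values carries, per the file headers, a detection p-value beside each, and the lowest intensity was 30.4, so the values were treated as not background-subtracted. GenomeStudio 1.9.0 is named in the submitters' processing notes, and other upstream steps and a genome build are not given in the sources used here. The authors' second deposited file holds a score per probe, which recomputed z scores of log10 intensity matched to within 5e-10.

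Intensities were background-corrected from the detection p-values and quantile-normalised on a log2 scale with neqc (offset 16), using data.table version 1.17.8 in R 4.3.3 with limma 3.58.1. Probes with detection p under 0.05 on at least 4 arrays were kept. A single limma fit over the 19 arrays, with 1 mean per genotype (lmFit and eBayes, 15 residual and 4.64 prior degrees of freedom), gave 6 contrasts. P-values are two-sided, adjusted by Benjamini-Hochberg over all 14942 kept probes of each contrast, with a threshold of 0.05. The number of arrays limits the precision. The labels do not say whether samples were separate dissections, so p-values measure only the spread between these arrays, which may be technical.

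Symbols came from the platform annotation, where 23978 probes have 1 symbol, 23962 of them updated through Entrez identifiers, and 1719 have none. Pathway genes were represented by their kept probe of highest mean. Genes named were all member probes, the 2 of smallest p per pathway list where none passed, the 5 most correlated with Egln3, the 5 nearest on each side of it, and Polb. Calls under other settings name the gene beside the setting. Members and lists were chosen with earlier results of these data known. Tests were tried on simulated data. Alternatives covered normalisation, filter, deposited score, spelling of the age, arrays left out, and added ones. Promoters and gene order came from RefSeq (GRCm38.p6). Figures used Python 3.11.15 with matplotlib 3.10.9.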

Additional observations from a re-analysis of the deposited data

Results flagged for a closer look

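In Polb+/-, the Egln3 value of replicate 2 (7.20) stood apart from the other 3 arrays, which lay between 6.72 and 6.77. This is given as a description, since Egln3 was chosen on these values. Polb+/- minus wild type was -0.54 on the log2 scale without that array and -0.42 with it. In 3xTgAD, the Egln1 probe ILMN_2617086 stood at 7.91 on replicate 3, far above the other 5 arrays, by a gap that is large for the range of a group of 6. Of 40 groups examined 2 had such an array, and chance gives about 1 in 20.

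Egln3 also stood out because all 4 Polb+/- arrays lay below the wild type mean while all 4 3xTgAD/Polb+/- arrays lay above the 3xTgAD mean. The interaction was 0.87 on the log2 scale, and the difference was not tested because Egln3 had been chosen for it.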

How the results depend on the processing

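Results were recomputed under 13 other settings and with each of the 19 arrays left out. Of the differences of the other members so obtained, 1707 kept their side of the threshold, and 3 passed it. None reversed among those larger than their standard error, and smaller ones were given no direction. On the log2 scale 40 of 1656 moved by more than their standard error, 37 of them on the arrays of 1 spelling. For Egln3, which has no test, 2 differences moved by more than the spread between arrays and 190 were counted as not moved. Among the latter, differences on the deposited score were not compared with that spread, because their scale differs. The interaction of Egln3 was 1.12 on the "20 month" arrays, and its difference of 3xTgAD/Polb+/- from Polb+/- was 0.56 with the striatal marker mean as a covariate. That covariate and the removal of both arrays labelled 3xTgAD with low Polb were chosen after seeing the data. Arrays of 3xTgAD/Polb+/- and Polb+/- did not overlap on the covariate.

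With only the "20- month" arrays, 1 member probe (Hif1a) was called for 3xTgAD/Polb+/- against Polb+/- and 1 (Hif1a) against wild type. On the same arrays, 3 pathway genes (Elob, Trf, Fam162a) were called against 3xTgAD, 1 (Fam162a) for the interaction, 8 against Polb+/- and 9 against wild type, where all arrays gave 0. Of all probes, 5.03%, 0.99%, 10.6% and 13.3% were called there in the same order. Trf and Fam162a are named here after their values were seen. That set has 11 arrays, and the cause was not tested. With single arrays left out, calls of member probes for 3xTgAD/Polb+/- against wild type ranged from 0 to 1, and those of pathway genes from 0 to 2, and from 0 to 3 against Polb+/-. Each highest value came from leaving out 3xTgAD/Polb+/- replicate 3, with 1 Egln1 probe, Elob, Pgam1 and Fam162a called, where 2.13% of all probes were called against wild type and 1.74% against Polb+/-. The cause was not tested.

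Calls over all kept probes ranged widely, from 0 to 1583 for 3xTgAD/Polb+/- against Polb+/- and from 0 to 1983 against wild type, beside 2 and 1 with all arrays. They ranged from 0 to 751 against 3xTgAD, 0 to 148 for the interaction, 0 to 65 for 3xTgAD against wild type and 0 to 16 for Polb+/- against wild type, beside 0 in each.

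The deviations of arrays with the same replicate number had r from -0.34 to 0.44 (25 pairs, median -0.17). For arrays with different numbers, r ran from -0.45 to 0.42 (109 pairs, median 0.06). Arrays of the same number often differ in the spelling of the age, so whether the numbers pair arrays was not tested. With the replicate block, the Egln3 interaction was 0.85, and 0 member probes and 0 pathway genes were called in each comparison. Genes near background are limited by signal, and 5 of 15 member probes had none to compare.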
